A study of Rattus norvegicus with 6 samples.

Results

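The miRNAs of striated muscle were followed in rat lung after ischemia reperfusion (IR). They were chosen by name, as every name in the count table with the stem miR-1, miR-1b, miR-133a, miR-133b, miR-133c, miR-206, miR-208a, miR-208b or miR-499, which gave 11 of the 693 miRNA names. Of these 11, 7 had enough reads to be tested and 4 did not. Small RNA was sequenced from lung tissue in 3 IR and 3 sham libraries, all of male Sprague-Dawley rats 7 to 8 weeks old. For IR, the left hilum was clamped for 45 min under anesthesia and ventilation and blood flow was then restored, whereas sham animals were opened but not clamped. Neither the time of reperfusion nor the part of the lung that was sampled is given in the sources. The libraries held 3775663 to 11248166 reads on listed miRNAs, and IR replicate 2 was the shallowest. The TMM scaling factor was lowest in sham replicate 3, 0.867, and next lowest in IR replicate 2, 0.929. The other libraries had 1.05 to 1.06.

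miR-1 and miR-133a are produced from shared precursor transcripts in heart and skeletal muscle, under the control of muscle transcription factors such as SRF, MEF2 and MyoD. miR-206 and miR-133b form a related pair that is typical of skeletal muscle. miR-208a, miR-208b and miR-499 lie within introns of myosin heavy chain genes and follow the expression of those genes. In muscle cells miR-1 and miR-206 favour differentiation, and miR-133 restrains SRF. In rodents a sleeve of cardiac muscle runs along the pulmonary veins into the lung, so that lung tissue can hold striated muscle in addition to the smooth muscle of airways and vessels.

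The mature sequences of all 11 names were found in the RefSeq miRNA table (build GRCr8). The sequences of 9 of the 11 names and of miR-3571, an opposite-strand copy of miR-1-3p outside the 11, are shown because several names differ by very few bases or are copies of each other on opposite strands, and the counts can only be read with this in view. Bases 2 to 8 from the 5′ end, the seed that pairs with target mRNAs, are in capitals. The first 3 names share a seed, as do the next pair:

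rno-miR-1-3p: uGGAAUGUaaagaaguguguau
rno-miR-1b: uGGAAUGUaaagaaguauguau
rno-miR-206-3p: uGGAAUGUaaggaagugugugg
rno-miR-133a-3p: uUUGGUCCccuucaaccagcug
rno-miR-133b-3p: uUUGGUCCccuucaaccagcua
rno-miR-133c: cAGCUGGUugaaggggaccaa
rno-miR-3571: uACACACUucuuuacauuccaua
rno-miR-499-5p: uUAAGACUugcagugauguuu
rno-miR-208a-3p: aUAAGACGagcaaaaagc
rno-miR-208b-3p: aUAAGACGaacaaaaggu

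Positions were counted from 1 at the 5′ end, with the base of the first-named miRNA first. miR-1-3p and miR-1b differed by a single base over 22, G17A, outside the seed. The sequence that the rat table calls miR-1b is the one listed as miR-1 in mouse and human. miR-206-3p differed from miR-1-3p by A11G, A21G and U22G. miR-133b-3p differed from miR-133a-3p only in its last base, G22A. No other name of the count table with a sequence in RefSeq had the seed of any of the 11, and none outside the 11 was within 2 bases of one. How the authors' counting assigned a read that differs from a name by a base is not stated in the sources.

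In RefSeq, miR-1-3p lies at chr18:2160339-2160360 on the minus strand and miR-133a-3p at chr18:2157886-2157907 on the same strand, both within the gene Mib1, with 2368 bases between the 2 hairpins. miR-1b lies at chr3:187864736-187864757 on the plus strand, within no listed gene when miRNA genes are set aside. Whether another miRNA lies near miR-1b was not examined. miR-206-3p (chr9:30590747-30590768, plus strand) and miR-133b-3p (chr9:30594629-30594650, plus strand) lie within a long noncoding RNA gene, with 3801 bases between their hairpins. miR-499-5p (chr3:164570616-164570636, plus strand) lies within Myh7b, miR-208a-3p within Myh6 and miR-208b-3p within Myh7. These positions are those of GRCr8, since the authors' build is not stated in the sources.

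miR-133c and miR-3571 are not separate measurements. rno-miR-133c occupies chr18:2157886-2157906 on the plus strand, opposite miR-133a-3p, and is its exact reverse complement over 21 bases. It was counted 1470 times over the 6 libraries and miR-133a-3p 1473 times. miR-3571 is likewise the reverse complement of miR-1-3p over 21 bases, with 1016 and 1017 reads. Of the 39 name pairs in the table that overlap on opposite strands by at least 15 bases, with a mean of at least 5 reads for either name, 26 had counts within 5% or 2 reads of each other in every library. Reads of the 2 strands could therefore not be told apart here, and miR-133c was left out of the sums over the members.

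The striated muscle miRNAs were a small fraction of the lung reads, and they were led by miR-1b. Together, without miR-133c, they made up 0.0591% to 0.0676% of each library. miR-1b alone accounted for 68.8% to 78.3% of these. The level used throughout is the CPM, the count per 1000000 miRNA reads after TMM normalization. Levels of different names are compared as shares of reads, which need no length term, and how far reads per molecule differ between sequences was not tested. For comparison, the smooth muscle markers miR-143-3p and miR-145-5p summed to 133207 to 162568 CPM, the endothelial miR-126a-3p and miR-126a-5p to 83159 to 111221 CPM and 5 epithelial miR-200 family members to 12890 to 19223 CPM. The striated muscle markers, without miR-1b and without the copy miR-133c, summed to 139 to 198 CPM.

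Among the 11 names miR-1b stood at 475 CPM on average over the 6 libraries, 4.35 times the 109 CPM of miR-499-5p, whose precursor lies in a myosin gene. miR-499-5p was 3.65 times above miR-133a-3p (29.9 CPM). The ranges of these 3 did not overlap. miR-133a-3p and miR-1-3p (21.8 CPM) did overlap, with miR-133a-3p above miR-1-3p in all 3 sham libraries and in 1 of 3 IR libraries. miR-206-3p, the skeletal muscle member, was lower at 5.22 CPM. The ranges of miR-206-3p and of miR-133b-3p (1.27 CPM) overlapped, although miR-206-3p was the higher of the pair within each of the 6 libraries.

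The remaining 4 names were close to the limit of detection. The passenger arm miR-133a-5p had 20 reads, or 1.34% of the reads of both arms (95% exact interval 0.820% to 2.06%). miR-499-3p had 6 reads beside 5460 of miR-499-5p, 0.110% of both (95% exact interval 0.0403% to 0.239%). The cardiac miR-208a-3p had 1 read, in IR replicate 2, and miR-208b-3p had 2, in IR replicate 3 and sham replicate 3. In a library a count of 0 allows a TPM of up to 0.267 to 0.795 (3 reads). Both cardiac miR-208 miRNAs were thus at or near 0, whereas miR-499-5p, of the same cardiac marker list, was above 87 CPM in every library. Intervals and limits computed from reads cover counting error only, because the reads carry no molecular identifiers.

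**Figure D1:**
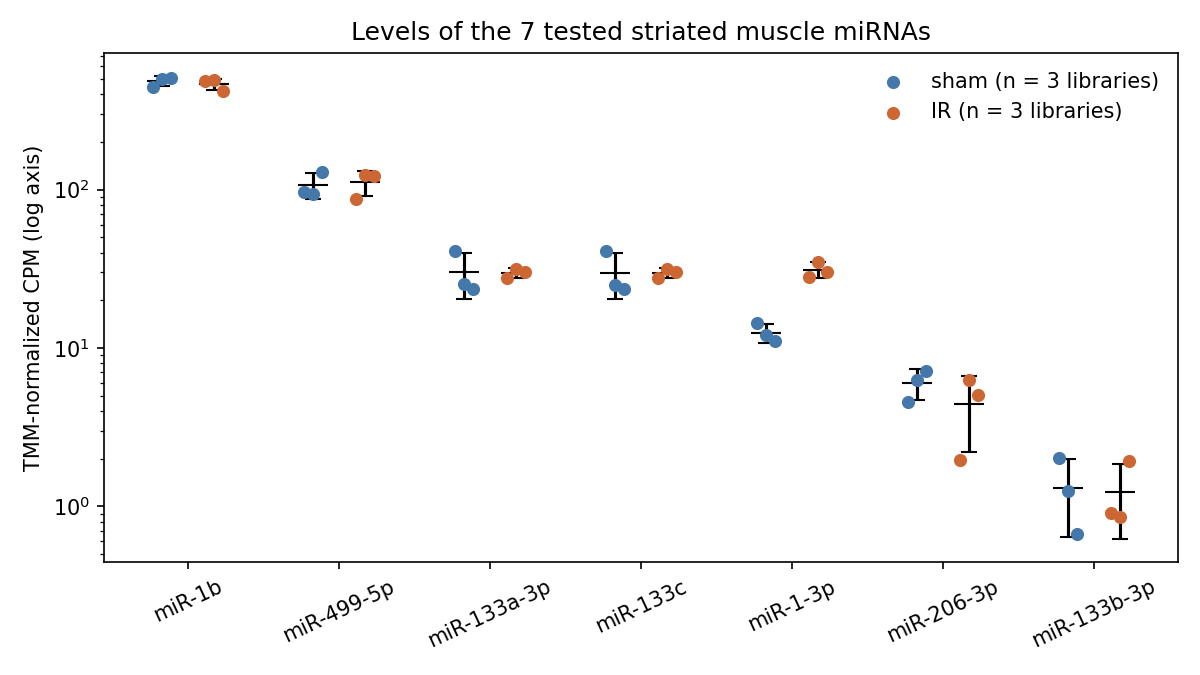
TMM-normalized CPM on a log axis for the 7 tested striated muscle miRNAs, with 1 point per library (3 sham in blue, 3 IR in orange) and bars for the mean ± SD. The groups are apart for miR-1-3p, at 11.1 to 14.4 in sham and 28.2 to 35.1 after IR, and overlap for the other 6.

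IR was compared with sham for all miRNAs to learn which levels differ after clamping and reperfusion. Counts were compared with the quasi-likelihood test of edgeR, with p-values adjusted (Benjamini-Hochberg) over the 418 tested miRNAs and called under 0.05. Of the 7 tested striated muscle names, 1 was called, rno-miR-1-3p, which is 14.3% of them, where 10.5% of all tested miRNAs were called in either direction. The IR and sham libraries did not overlap for 1 of the 7, and for 34.0% of all tested miRNAs. The median log2 fold change of the 7 was -0.01, beside -0.01 over all tested miRNAs. Without the copy miR-133c, 1 of 6 was called and 1 of 6 did not overlap (16.7%), with a median of 0.02. A single name does not set these shares apart from the background. The background itself depended on single libraries, with 0.488% of tested miRNAs called when IR replicate 3 was left out, 3.90% when IR replicate 2 was and 5.41% when IR replicate 1 was. Leaving out sham replicate 3 gave 21 called of 420 tested, and leaving out sham replicate 2 gave 13.6%.

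miR-1-3p was higher after IR. It had 114, 136 and 99 reads in sham replicates 1 to 3 and 187, 123 and 358 reads in IR replicates 1 to 3. On the normalized scale the sham libraries were at 14.4, 12.1 and 11.1 CPM and the IR libraries at 28.2, 35.1 and 30.2 CPM. Every IR library lay above every sham library, and the lowest IR level was nearly double the highest sham level. The level rose from 12.5 ± 1.68 to 31.2 ± 3.52 CPM (SD, n = 3 each), 2.49-fold (95% interval 1.78 to 3.47). This is a log2 fold change of 1.31 with a standard error of 0.21, and the adjusted p was 0.0138 in the edgeR test. Its mirror name miR-3571 gave the same values, 1.31 and 0.0138 in that test, and is no second observation. In whole lung, more cells of a type and more RNA per cell cannot be told apart. Without IR replicate 3, the deepest library, the log2 fold change was 1.37 and the adjusted p = 0.0700 from the same test. Without sham replicate 3 they were 1.22 and 0.0369.

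miR-1b, one base away from miR-1-3p and far more abundant, was not called. It was at 446, 503 and 509 CPM in the sham libraries and at 483, 490 and 421 CPM in the IR libraries, and the groups overlapped. The log2 fold change was -0.06, with a 95% interval of -0.38 to 0.25, which lies below the whole interval of miR-1-3p (0.83 to 1.79). Its adjusted p was 0.788 in the edgeR test.

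Summed over miR-1-3p and miR-1b, the miR-1 level was 498 CPM in sham (SD 33.4, n = 3) and 496 CPM in the IR libraries (SD 39.1, n = 3). With miR-206-3p added, which has the same seed, the sums were 504 CPM (SD 34.7) and 500.4 CPM (SD 39.0). The groups overlapped in both sums, and the difference was smaller than the SD of either group. miR-1b made up most of each sum, and its own SD was 35.1 CPM in sham and 37.8 CPM in IR. The whole IR level of miR-1-3p, 31.2 CPM, is below both SDs. These sums therefore cannot show whether its rise was offset. The split between the 2 names rests on 1 base and on an assignment rule that is not stated, so reads of miR-1b variants among those counted as miR-1-3p cannot be told apart in these counts.

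The share of miR-1-3p in the reads of miR-1-3p and miR-1b needs no scaling between libraries. It was 3.12% in sham replicate 1 (95% exact interval 2.58% to 3.74%), 2.34% in sham replicate 2 (1.97% to 2.76%) and 2.13% in sham replicate 3 (1.74% to 2.59%). After IR it was 5.52% in replicate 1 (4.77% to 6.34%), 6.68% in replicate 2 (5.58% to 7.92%) and 6.68% in replicate 3 (6.03% to 7.38%). No interval of an IR library reached one of a sham library. The mean share was 2.53% in sham (SD 0.522) and 6.29% in IR (SD 0.672), a difference of 3.76 percentage points (exact permutation test, two-sided, p = 0.1, the smallest that 3 against 3 allow, and 0.133 adjusted over 4 comparisons of proportions). This share was chosen after its values were seen.

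rno-miR-133a-3p, which lies beside miR-1-3p on chromosome 18 and targets SRF, was not called. Whether part of its reads comes from another locus was not examined. The sham libraries were at 41.1, 25.2 and 23.6 CPM and the IR libraries at 27.5, 31.6 and 30.3 CPM. Sham replicate 1 was above all the others, and the IR libraries lay between the sham values. The sham mean was 29.97 CPM (SD 9.65, n = 3) and the IR mean 29.8 CPM (SD 2.12, n = 3). The log2 fold change was -0.01 (95% interval -0.59 to 0.58, adjusted p = 0.993 from edgeR), so a change of up to about 1.5-fold in either direction lies within the interval. Without sham replicate 1 the log2 fold change was 0.27 and the adjusted p = 0.509 from the same test. rno-miR-133c, its mirror name, was also at -0.01 in this test.

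The proportion of miR-133a-3p to miR-1-3p was lower in the IR libraries. There were 2.86, 2.09 and 2.13 reads of miR-133a-3p per read of miR-1-3p in sham replicates 1 to 3. In IR replicates 1 to 3 there were 0.973, 0.902 and 1.00 reads. All IR libraries lay below all sham libraries. The difference in mean log2 ratio was -1.28, or 2.43-fold (exact permutation test, two-sided, p = 0.1, the smallest possible, 0.133 adjusted over the 4 comparisons). Against miR-1b the proportion of miR-133a-3p overlapped between groups, with a difference of 0.10 on the log2 scale (exact permutation test, two-sided, p = 0.8, adjusted 0.8). The direction of this last difference turned without sham replicate 2 (-0.03) or sham replicate 3 (-0.08), and it was 0.41 without sham replicate 1.

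**Figure D2:**
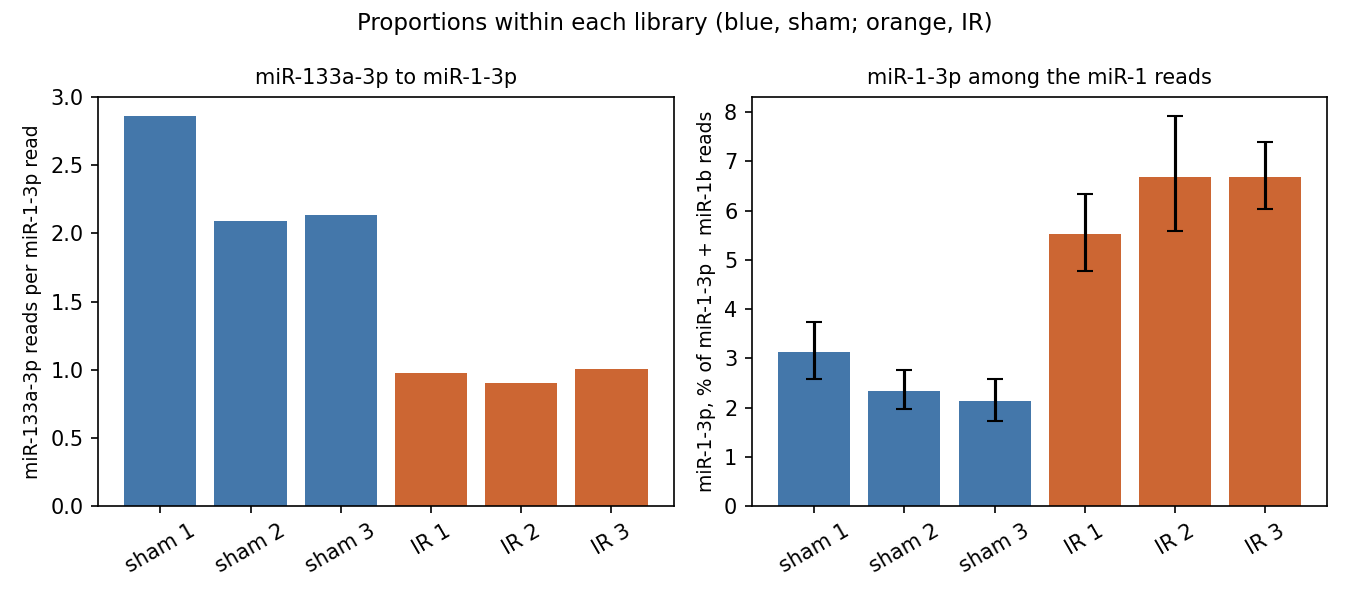
Reads of miR-133a-3p per read of miR-1-3p (left, vertical axis from 0) and miR-1-3p as a percentage of miR-1-3p plus miR-1b reads (right, bars are 95% exact intervals), 1 column per library with sham in blue and IR in orange. The left ratio is 2.09 to 2.86 in sham and 0.902 to 1.00 after IR, and the right share is 2.13% to 3.12% in sham and 5.52% to 6.68% after IR.

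rno-miR-206-3p, the member typical of skeletal muscle, was measured from 13 to 71 reads per library. The sham libraries were at 4.54, 6.30 and 7.17 CPM and the IR libraries at 1.96, 6.27 and 5.06 CPM. IR replicate 1 was the lowest of the 6, and the other IR libraries lay within the sham range. The sham mean was 6.0 CPM (SD 1.34, n = 3) and the IR mean 4.43 CPM (SD 2.22, n = 3). The log2 fold change was -0.47 (95% interval -1.44 to 0.51, adjusted p = 0.520 from edgeR), and it was -0.15 without IR replicate 1. The interval lies below that of miR-1-3p, with which miR-206-3p shares its seed.

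Per read of miR-1-3p there were 0.316, 0.522 and 0.646 reads of miR-206-3p in sham replicates 1 to 3. There were 0.0695, 0.179 and 0.168 in IR replicates 1 to 3. The groups did not overlap, and the difference in mean log2 ratio was -1.87 (exact permutation test, two-sided, p = 0.1, the smallest possible, 0.133 adjusted over the 4 comparisons). The difference was -1.44 without IR replicate 1. This ratio, that of miR-133a-3p to miR-1-3p and the share of miR-1-3p all use the same miR-1-3p reads. They are therefore not separate observations of the rise of miR-1-3p.

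miR-133b-3p, the partner of miR-206, had 3 to 23 reads per library. It averaged 1.31 CPM in sham (SD 0.675, n = 3) and 1.23 CPM in IR (SD 0.611, n = 3), with a log2 fold change of 0.05 and a wide 95% interval of -1.15 to 1.24. A change of 2-fold in either direction lies within that interval. Reads of miR-133a-3p that end early could match either name, as the 2 differ in the last base only.

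miR-499-5p, the best measured miRNA from a myosin gene, was at 96.9, 94.0 and 130 CPM in the sham libraries and at 87.5, 124 and 123 CPM in the IR libraries. Each group held low and high libraries, and the ranges overlapped almost wholly. The log2 fold change was 0.06 (95% interval -0.44 to 0.55, adjusted p = 0.900 from edgeR). For the 4 names under the filter, reads were summed over each group. miR-133a-5p had 10 reads in each group, a ratio of IR to sham of 1.34 after division by the total reads (95% exact interval 0.499 to 3.58). miR-499-3p had 1 read after IR and 5 in sham (ratio 0.267, 95% exact interval 0.00565 to 2.39), and for the miR-208 names no fold is given.

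**Figure D3:**
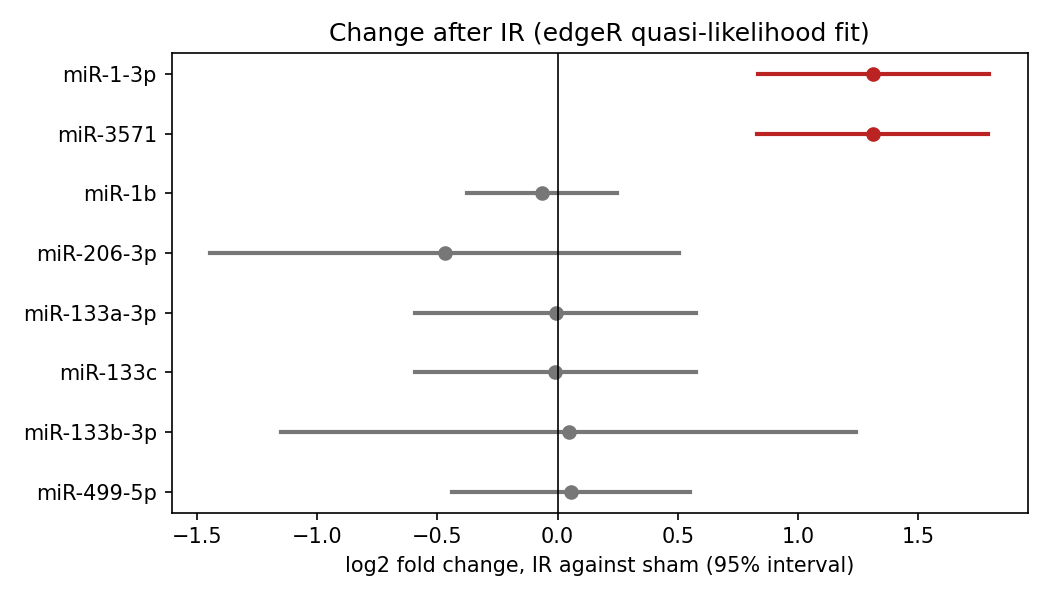
Log2 fold change, IR over sham, on the horizontal axis with its 95% interval from edgeR's quasi-likelihood fit, for the 7 tested striated muscle names and miR-3571, the mirror name of miR-1-3p. Red marks an adjusted p under 0.05, reached by miR-1-3p and miR-3571 at 1.31, and the intervals of the grey names cross 0.

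Apart from miR-3571, whose reads are those of miR-1-3p and which was left out here and in the ranks, the 5 tested miRNAs with profiles closest to miR-1-3p over the 6 libraries were found by the mean absolute difference between centred log2(CPM + 1) profiles. They were miR-29b-5p (0.13 log2 units), miR-493-3p (0.14), miR-379-3p (0.17), miR-29c-5p (0.18) and miR-433-3p (0.21). miR-29b-5p and miR-29c-5p, passenger arms of the miR-29 family, went from 12.0 to 27.7 CPM and from 46.0 to 101 CPM. The other 3 come from the imprinted Dlk1-Dio3 region and had IR means below 2 CPM, a level at which the added 1 shrinks differences. By the same measure miR-499-5p ranked 171st and miR-133a-3p 176th, at 0.60 and 0.61 log2 units. miR-1b ranked 215th at 0.66 and miR-206-3p 347th at 0.85.

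Other miRNAs of muscle were read from lists. Of 14 miRNAs described in muscle differentiation, 12 were in the table and 11 had enough reads. The edgeR test gave these counts: 0 of the 11 were called higher and 0 lower, where 7.89% of all tested miRNAs were called higher and 2.63% lower, and 5 had an unadjusted p under 0.05, as had 26.3% of all tested miRNAs. DESeq2's Wald test called 1 of the 12 list members it tested, miR-214-3p, as lower, where it called 13.7% of 505 miRNAs in either direction. The median log2 fold change of the list was -0.05. The 5 were miR-486, found in muscle and in red cells, at -1.09, miR-214-3p at -0.73 and miR-181a-5p at -0.54, and on the other side miR-29b-3p at 0.53 and miR-29c-3p at 0.55. miR-378a-3p, from the gene of a mitochondrial coactivator, was at -0.16, and miR-24-3p, miR-26a-5p, miR-27b-3p, miR-322-5p and miR-503-5p were between -0.07 and 0.10.

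The smooth muscle list held both arms of miR-143 and miR-145, which maintain the contractile state of smooth muscle cells. In the edgeR test 0 of these 4 were called, where 10.5% of all tested miRNAs were. An unadjusted p under 0.05 was reached by 0 of the 4 and by 26.3% of all tested miRNAs. DESeq2 called 0 of them, where it called 13.7% of all it tested. The groups did not overlap for 1 of the 4, miR-143-5p (125 CPM in sham, 101 CPM after IR), and for 34.0% of all tested miRNAs. miR-143-3p averaged 144869 CPM in sham (SD 16065, n = 3) and 144304 CPM in IR (SD 10574, n = 3). The median of the list was -0.12.

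**Figure D4:**
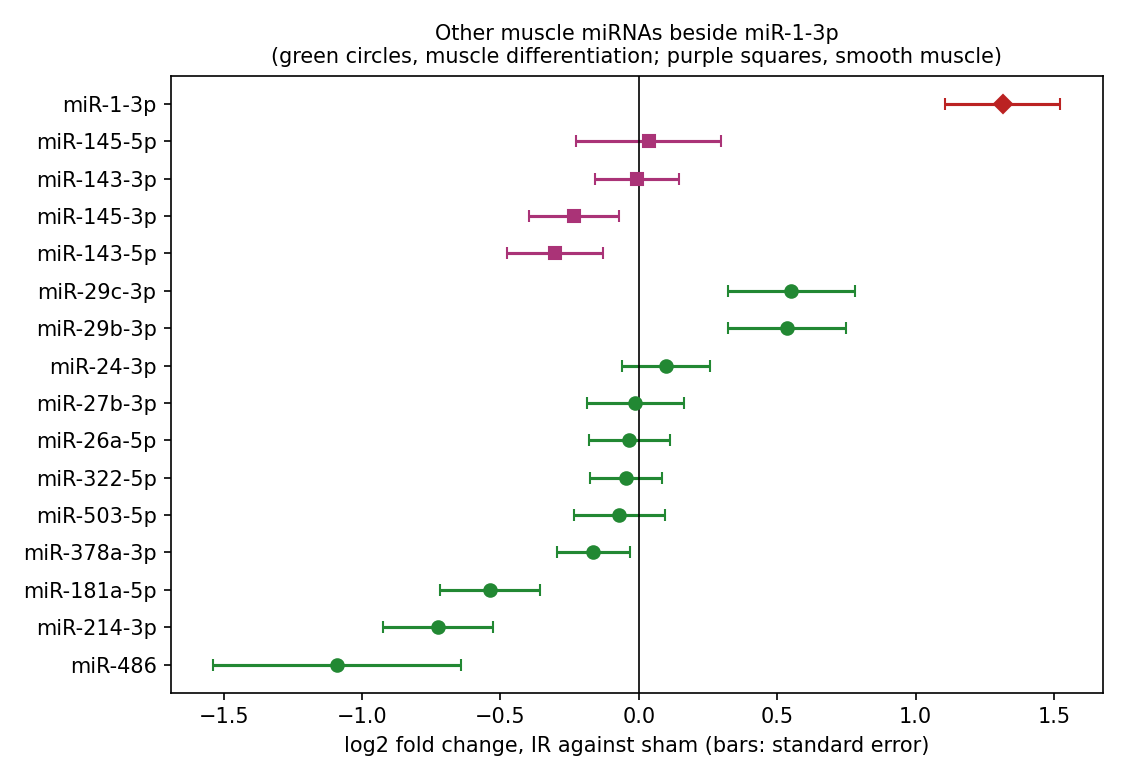
Log2 fold change, IR over sham, on the horizontal axis (bars show the standard error, 3 libraries per group) for the 11 tested miRNAs of the muscle differentiation list (green circles), the 4 of the smooth muscle list (purple squares) and miR-1-3p (red diamond). miR-1-3p is at 1.31, and the others lie between -1.09 and 0.55.

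Markers of other cell types were set beside the rise of miR-1-3p. The striated muscle list does not hold miR-1b, the most abundant of the 11 names. Its 7 markers without the copy miR-133c summed to 139 to 173 CPM in sham and 146 to 198 CPM after IR. Most of this sum was miR-499-5p, at 87.5 to 130 CPM, so it says little about miR-1-3p. Of the list's 6 tested markers, miR-133c included, 1 was called higher (miR-1-3p) and 0 lower. The 2 skeletal muscle markers summed to 6.55 to 7.84 CPM in sham and 2.87 to 7.13 CPM after IR. Both sums overlapped between groups. The 5 epithelial markers summed to 12890 to 15883 CPM in sham and 18673 to 19223 CPM after IR, and 0 of them were called. The 3 leukocyte markers (miR-223-3p, miR-142-3p, miR-142-5p) summed to 1678 to 2764 CPM and 1267 to 1543 CPM, with 0 called. The 2 fibroblast markers were at 1665 to 2019 CPM and 1025 to 1277 CPM, with 1 called lower (miR-199a-3p). The groups did not overlap in the epithelial, leukocyte and fibroblast sums, and their part in the result was not tested. Of all tested miRNAs, taken singly, 7.89% were called higher and 2.63% lower, and 34.0% did not overlap between the groups. The sums of the endothelial, ciliated airway, erythroid, liver and neural markers overlapped between the groups.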

How the data were processed

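The authors deposited whole read counts per miRNA name and library, and beside them TPM, which equal the counts per 1000000 listed miRNA reads with no length term. Bowtie is named in the submitters' processing notes, while no source here states the build, annotation, counting tool, mismatch rule or handling of multiple matches. Samples were grouped from their titles, and 0 columns of values lacked a sample. In R 4.3.3, miRNAs kept by filterByExpr (minimum count 10, minimum total 15) were scaled by TMM (factors 0.867 to 1.06) and tested with edgeR 4.0.16's quasi-likelihood test, 418 of 693 names in all. The standard error is the log2 fold change divided by the square root of F. Alternatives used RLE, total counts, other filters, DESeq2 1.42.0, limma 3.58.1 (voom, and trend on log2(TPM + 1)), a replicate block, shared reads counted once, and each library left out. Ratios used a pseudocount of 0.5 reads and an exact permutation test over 20 assignments. Figures were drawn with matplotlib 3.10.9.

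Median depth was 10302473 reads for sham and 6300841 for IR, and low members are limited by counting error. The study describes its samples as biological replicates, but the labels do not tie them to separate animals, so p-values measure the spread between these samples. The members and lists were chosen with earlier results of these data known. Named were all members, names with shared counts or near sequences, list members and the 5 profiles closest to miR-1-3p. The share of miR-1-3p among miR-1 reads, the ratio to miR-1b, the sums and the tests of miR-1b, miR-133b-3p and miR-499-5p were added after seeing the data.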

Additional observations from a re-analysis of the deposited data

How the results depend on the processing

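miR-1-3p was higher after IR in all 15 alternatives, with a log2 fold change of 1.22 to 1.40 when 1 library was left out. It was called in 5 of these 6 fits and in 8 of 8 other settings without the block (adjusted p 1.17e-05 to 0.0173). The deviations of same-numbered libraries from their group means correlated at -0.234, -0.387 and -0.183. Those of differently numbered libraries correlated at -0.102 to 0.308. With 3 libraries per group these values cannot settle whether the replicate numbers pair the libraries. With the replicate number as a block miR-1-3p was at 1.32 (adjusted p = 0.0692 from edgeR), and edgeR called 0 of 418 miRNAs, with 84 at an unadjusted p under 0.05. Over all miRNAs, 44 calls became 26 with 10 reads in every library, 69 with DESeq2 and 2 (without IR replicate 3) to 57 (without sham replicate 2) with 1 library left out. Leaving out IR replicate 2 gave 17, IR replicate 1 gave 24 and sham replicate 3 gave 21. The muscle differentiation list had 1 call with DESeq2 and 0 to 3 with 1 library left out, namely miR-486 without sham replicate 1, miR-181a-5p, miR-29b-3p and miR-29c-3p without sham replicate 2, and miR-214-3p without sham replicate 3. The smooth muscle list had 0 in every setting.

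Members that were not called stayed so throughout, and the sign of those near 0 turned. miR-133a-3p was at 0.014 with no filter, 0.033 with 10 reads in every library, 0.042 with limma-voom, 0.060 with limma-trend, 0.036 with the replicate block and -0.16 to 0.27 with 1 library left out. Its mirror miR-133c was at 0.013, 0.032, 0.041, 0.059, 0.034 and -0.17 to 0.27 in the same order, and as a dropped copy it has no value with shared reads counted once. miR-133b-3p was at -0.050 with DESeq2, -0.035 with limma-trend and -0.27 to 0.41 with 1 library left out (it had too few reads to be tested without IR replicate 3 or with 10 reads in every library). With 1 library left out, miR-1b ranged from -0.13 to 0.049, miR-499-5p from -0.031 to 0.21 and miR-206-3p from -0.73 to -0.15. The log2 ratio of miR-133a-3p to miR-1-3p ranged from -1.36 to -1.13, that of miR-206-3p to miR-1-3p from -2.16 to -1.44, that of miR-133a-3p to miR-1b from -0.082 to 0.41, and the share of miR-1-3p differed by 3.56 to 4.15 percentage points. The cause of these shifts was not tested. Among the 11 names, miR-206-3p, miR-133b-3p and the 4 names under the filter had the fewest reads. Whether this bears on the shifts was not tested.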
